A study of Homo sapiens with 4 samples.

Results

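Open chromatin was examined around 10 genes of the mesenchymal transition in human pancreatic progenitors: CDH2, VIM, FN1, ACTA2, ZEB1, ZEB2, SNAI1, SNAI2, TWIST1 and TWIST2. The members were the merged ATAC-seq regions that overlapped the GENCODE release 44 bodies of these genes extended by 20 kb on each side. There were 111 such regions among 164301 merged regions in all. The cells were derived from MEL1, an established human embryonic stem cell line that the study's methods name as MEL1 INS GFP/W, with a GFP reporter at INS, and all of them were cultured in EF6, a medium with B27, EGF at 50 ng/ml, bFGF at 10 ng/ml and an inhibitor of the TGFβ type I receptor (616452, 10 μM). The DMSO group received the solvent and the I-BET151 group received 1 μM I-BET151 in the same medium, each for 7 days, with 2 libraries per group and 50000 cells per library. All libraries thus come from a single cell line with TGFβ signalling inhibited in both groups, and the labels do not say whether the replicates were separate cultures, so that every spread given here may be technical.

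The mesenchymal transition is the programme by which epithelial cells loosen their junctions and acquire migratory, spindle-shaped features. The SNAI, ZEB and TWIST transcription factors drive it by repressing CDH1 and other epithelial genes, SNAI and ZEB through E-box sequences, while CDH2, VIM, FN1 and ACTA2 are products of the mesenchymal state. TGFβ is a classical inducer of the programme, and pancreatic epithelium in culture is known to enter it. I-BET151 is a small-molecule bromodomain inhibitor.

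ATAC-seq inserts adapters into accessible DNA with the Tn5 transposase, and a peak marks a site with more reads than its surroundings. The fold enrichment of a peak is the number of reads stacked at its summit (the pileup) over the local background of the same library, each plus 1. The fold is the authors' value from peak calling in each library, whereas the pileup was solved here from the fold and p of the peak. The lists held 82568 and 38295 peaks for DMSO replicates 1 and 2 and 84995 and 111324 peaks for I-BET151 replicates 1 and 2. The depths estimated from the background were 38.7 and 36.6 M reads for DMSO and 12.5 and 16 M reads for I-BET151, and the median fold was 3.88 and 4.08 against 5.56 and 6.03. Both I-BET151 libraries were shallower than both DMSO libraries and had longer lists. Within each group, the shallower library had the shorter list. Depth, number of peaks and median fold thus differed between the groups, and their part in the results below was not tested. Transcript starts were called in all 4 lists for 7 of 10 pancreatic progenitor genes, against 53.5% of 20033 protein-coding genes, so a called start alone does not mark a cell type. PDX1 was called only with I-BET151, ONECUT1 was missing in DMSO replicate 2, and PTF1A was called in no list. Of 8 genes of mesenchyme or fibroblasts, 2 and 2 had a called start with DMSO and 4 and 5 with I-BET151. Over all protein-coding genes, 61.1% and 56.1% of starts were called with DMSO and 66.5% and 70.4% with I-BET151. Starts of endothelial genes were called for 1, 0, 1 and 2 of 4 genes in the order DMSO 1, DMSO 2, I-BET151 1 and I-BET151 2, those of endocrine genes for 1, 0, 2 and 1 of 6, those of pluripotency genes for 2 of 4 in every list, and those of 3 blood genes in none. In bulk libraries, fewer cells with an open site and less opening per cell cannot be told apart.

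The sequences of 5 member regions are shown as examples. Of the regions called only with I-BET151, they include the 3 with the highest lower-of-2 fold away from exons, each from a different gene. The others are the 2 regions away from exons whose rank in the lists shifted by the test given below. Each is the plus strand of hg38 in a window centred on the summit of the region, with motif matches in capitals. The windows are chr10:31404755-31404955 in ZEB1 intron 1, chr10:17238639-17238839 downstream of VIM, chr18:28115168-28115368 in CDH2 intron 2, chr2:238864403-238864603 in TWIST2 intron 1 and chr18:28183781-28183981 upstream of CDH2.
ZEB1 intron 1: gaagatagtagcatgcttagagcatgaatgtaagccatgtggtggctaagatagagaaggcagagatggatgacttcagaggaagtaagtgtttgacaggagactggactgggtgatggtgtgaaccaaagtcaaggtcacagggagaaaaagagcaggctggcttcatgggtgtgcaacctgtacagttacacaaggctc
VIM downstream: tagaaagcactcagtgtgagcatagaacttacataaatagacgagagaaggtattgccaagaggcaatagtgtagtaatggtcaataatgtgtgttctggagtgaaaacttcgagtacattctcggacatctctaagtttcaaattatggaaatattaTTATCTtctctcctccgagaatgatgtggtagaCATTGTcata
CDH2 intron 2: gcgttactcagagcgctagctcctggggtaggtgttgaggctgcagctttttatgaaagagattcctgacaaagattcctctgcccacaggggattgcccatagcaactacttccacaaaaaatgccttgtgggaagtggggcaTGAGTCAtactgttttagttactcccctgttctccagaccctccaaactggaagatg
TWIST2 intron 1: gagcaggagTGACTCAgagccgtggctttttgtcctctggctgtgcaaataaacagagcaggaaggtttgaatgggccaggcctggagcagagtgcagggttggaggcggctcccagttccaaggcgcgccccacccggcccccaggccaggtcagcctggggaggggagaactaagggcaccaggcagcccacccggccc
CDH2 upstream: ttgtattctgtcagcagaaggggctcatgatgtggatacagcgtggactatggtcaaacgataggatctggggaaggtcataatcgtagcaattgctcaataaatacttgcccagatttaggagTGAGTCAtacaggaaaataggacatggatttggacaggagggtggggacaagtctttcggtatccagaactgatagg

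The capitals mark an AP-1 motif (TGANTCA) at positions 145 to 151 of the CDH2 intron 2 window, 10 to 16 of the TWIST2 window and 125 to 131 of the CDH2 upstream window. In the VIM window they mark a GATA motif (AGATAA) at positions 159 to 164 and a SOX motif (ACAATG) at positions 192 to 197, both on the minus strand. The ZEB1 window held none of the 7 motifs searched. All motifs were searched on both strands, and none contains another. AP-1 was present in 10.8% of the 111 member windows and in 11.01% of all 164301 windows of this length. GATA was present in 18.9% against 14.2% and SOX in 9.91% against 11.1%. The E-box CACCTG, which ZEB and SNAI proteins bind, was in 13.5% of member windows against 16.5% of all, and in 20.8% of the 24 gained members against 13.8% of all gained regions, differences that were not tested. The TEAD motif GGAATG was in 12.6% against 15.0%, the FOXA motif TGTTTAC in 4.50% against 4.57%, and the ONECUT motif ATCAAT in 9.91% against 9.22%. A match describes the letters of a window and not binding. The median GC content was 45.8% in member windows and 47.8% in all.

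Of the 111 regions, 42 were called in DMSO replicate 1, 22 in DMSO replicate 2, 61 in I-BET151 replicate 1 and 84 in I-BET151 replicate 2. Both I-BET151 lists therefore held more of the members than either DMSO list, as they did over all regions (80816 and 111206 against 78671 and 37658). Called with I-BET151 in both replicates but in neither DMSO list (gained) were 24 members, which is 21.6% against 17% of all regions. No member showed the reverse pattern (lost), against 2.37% of all regions. There were 18 members called in all 4 lists (16.2% against 15.6% of all regions), 57 in a single list (51.4% against 51.8%), 28 in 2 lists (25.2% against 24.4%) and 8 in 3 lists (7.21% against 8.26%). Of those called in a single list, 14 came from DMSO replicate 1 (12.6% of members, against 18.1% of all regions). From DMSO replicate 2 came 1, near TWIST1 (0.90% against 1.33%). Another 12 came from I-BET151 replicate 1 (10.8% against 10.0%) and 30 from I-BET151 replicate 2 (27.0% against 22.3%). Replicates of a group thus differed widely. Leaving out I-BET151 replicate 1 raised the gained members to 54 (39.3% of all regions by the same rule), and leaving out DMSO replicate 2 raised the lost ones from 0 to 14 (20.4%). With the 38295 strongest peaks of every list, 43 member regions remained, of which 3 were gained (6.98%, against 9.19% of all regions) and 1 was lost (2.33%, against 5.85%).

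A gained region was present at 8 of the 10 genes, and FN1 and TWIST2 had none. CDH2 held 11 of the 24, and without CDH2 the share was 13 of 81 regions (16.05%), below the 17% of all regions. By position, 18 gained members lay in a gene body, 15 of them in an intron, 5 in a flank and 1 at the start of its own gene. The median gained member was 494.5 bp wide, with folds of 3.60 to 9.79 in I-BET151 replicate 1 and 2.75 to 9.14 in replicate 2. Their pileups were 7 to 24 and 10 to 37 reads, so the counting error of each is large.

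At the transcript start, within 1 kb of the first base of the canonical transcript, a region was called in all 4 lists at 6 of the 10 genes: CDH2, VIM, FN1, ZEB1, SNAI2 and TWIST1. The start of SNAI1 was called only in both I-BET151 lists, that of ACTA2 only in I-BET151 replicate 2, and those of ZEB2 and TWIST2 in no list. Over 20033 protein-coding genes, 53.5% of starts were called in all 4 lists, 7.07% only in both I-BET151 lists, 3.24% only in I-BET151 replicate 2 and 26.2% in none.

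To compare whole loci, each region was given its percentile by fold within a list (0 where it was not called), and the locus score of a gene is the mean percentile of its regions. Called with I-BET151 alone were 12 members (replicate 1), 30 (replicate 2) and 24 (both), and with DMSO alone 14, 1 and 0. These regions scored 0 in the other group. Which lists supplied the regions thus enters the score, and the permutation test below does not separate it. The mean score over the 10 genes was 19.1 and 10.9 with DMSO and 25.2 and 30.4 with I-BET151. Both I-BET151 scores lay above both DMSO scores at 8 of 10 genes, against 51.3% of 18871 protein-coding genes, and at none did both lie below, against 2.96%. The median difference was 13.3 percentile points over the 10 genes and 10.7 over all genes, so genes in general also scored higher. For each of the 8 genes the exact permutation test (two-sided) gave p = 0.33, the smallest that 2 against 2 libraries allow. When all lists were cut to 38295 peaks, the direction turned at CDH2, VIM, ACTA2, ZEB2, SNAI1, SNAI2 and TWIST1 and stayed below 0 at FN1, so that only ZEB1 and TWIST2 were higher with I-BET151. The median difference over the 10 genes was then −4.71, against −0.29 over all genes.

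**Figure D1:**
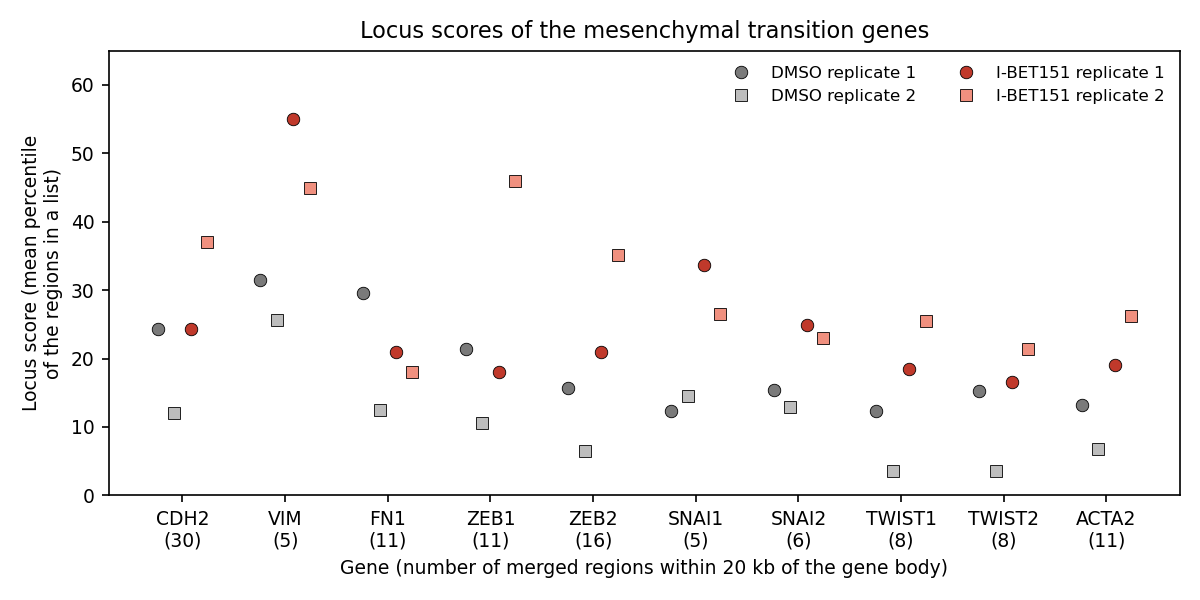
Locus score (mean percentile of the regions within 20 kb, 0 to 100, y axis) of each of the 10 genes (x axis, with the number of regions) in the 4 libraries, 1 point per library. The I-BET151 points lie above both DMSO points at 8 genes and overlap them at FN1 and ZEB1, and at CDH2 DMSO replicate 1 and I-BET151 replicate 1 are nearly level; with lists of equal length only 2 genes, ZEB1 and TWIST2, were higher with I-BET151.

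Among the products of the mesenchymal state, CDH2 (N-cadherin, the adhesion molecule that replaces E-cadherin) had the most regions. Its body (chr18:27932879-28177946, minus strand) and flanks held 30 regions, of which 11, 7, 21 and 25 were called in DMSO 1, DMSO 2, I-BET151 1 and I-BET151 2. Its scores were 24.3 and 12.03 with DMSO and 24.4 and 37.0 with I-BET151, a difference of 12.5 points (18.2 ± 8.67 against 30.7 ± 8.91, SD, n = 2). The groups did not overlap, but the replicate 1 libraries differed by only 0.09 points and the replicate 2 libraries by 24.9. No source pairs libraries of the same number. The region over the start (chr18:28177060-28178225) had folds of 4.50, 6.14, 7.07 and 9.51 and percentiles of 70.1, 84.8, 69.9 and 81.4, the highest mean percentile of the locus. Of the 11 gained regions, 2 lay in intron 1, 7 in intron 2, 1 in intron 11 and 1 upstream. The strongest by the lower of its I-BET151 folds was chr18:28115070-28115632 in intron 2, whose sequence is shown above, with folds of 5.79 and 5.79 and pileups of 18 and 30 reads in the I-BET151 lists. The next, chr18:28080875-28081305 in the same intron, had folds of 7.25 and 5.41, the higher mean of these 2 regions.

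**Figure D2:**
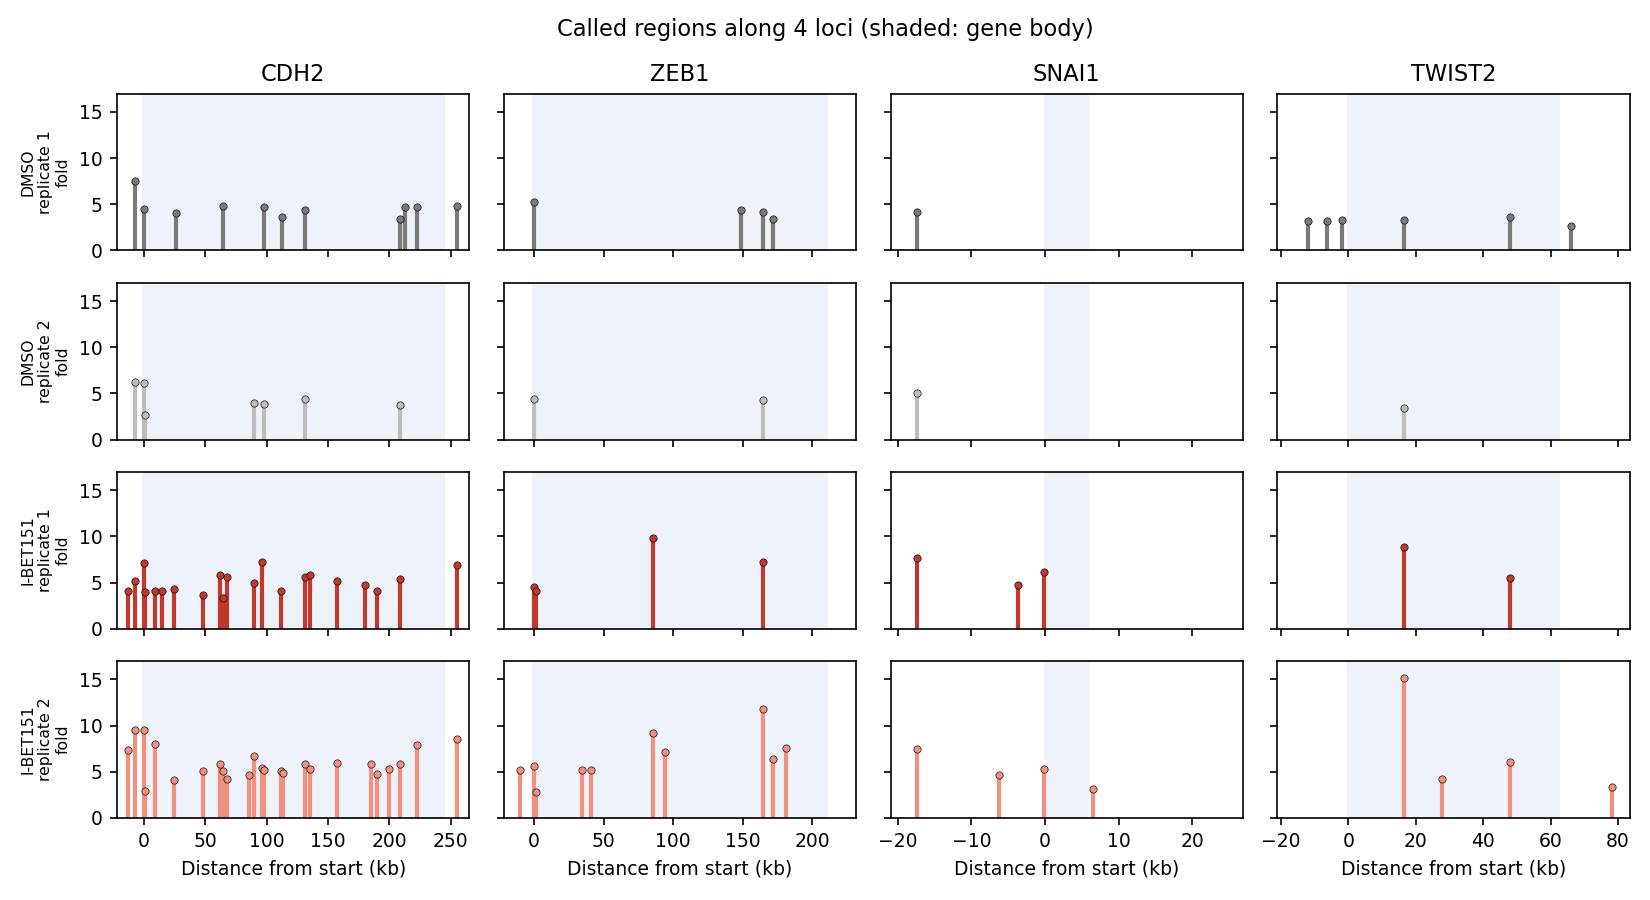
Fold enrichment (y axis) of the called regions along CDH2, ZEB1, SNAI1 and TWIST2 by distance from the transcript start in kb (x axis, positive into the gene), with a row for each library and the gene body shaded. CDH2 shows 11 and 7 regions in the DMSO rows and 21 and 25 in the I-BET151 rows, and TWIST2 shows 1 region present in every row, which stands highest in the I-BET151 rows.

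The CDH2 region chr18:28183561-28184129, whose summit lies at −6751 bp from the start, went the other way in rank. Its folds were 7.48 and 6.26 with DMSO and 5.14 and 9.48 with I-BET151, so the folds overlapped, with pileups of 34, 28, 10 and 33 reads. Its percentiles were 95.3 and 85.9 with DMSO and 41.1 and 81.3 with I-BET151, which did not overlap.

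VIM, the intermediate filament vimentin (chr10:17228241-17237593, plus strand), had the highest mean score with I-BET151 of the 10 genes. Its 5 regions gave 31.5 and 25.7 with DMSO and 55.1 and 44.9 with I-BET151, a difference of 21.4 points (28.6 ± 4.11 against 50.0 ± 7.20, SD, n = 2). The replicate 1 libraries differed by 23.6 points and the replicate 2 libraries by 19.3, although no source pairs them by number. The groups were well apart, but over its 2 regions called in all lists the difference was −9.07. The gained region chr10:17238313-17239223, downstream of the gene, had folds of 7.09 and 7.76 and pileups of 19 and 29 reads. The second gained region, at −7375 bp from the start, had folds of 7.33 and 5.11 and lies within the antisense gene VIM-AS1. The start region (chr10:17228235-17229677), which also lies within 1 kb of the start of VIM-AS1, had folds of 4.36, 3.93, 6.69 and 4.67. The strongest region by percentile was chr10:17216221-17216776, also within VIM-AS1, with folds of 6.21, 5.86, 6.72 and 11.2 and percentiles of 90.2, 82.3, 66.2 and 89.2.

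FN1, the matrix glycoprotein fibronectin (chr2:215360440-215436073, minus strand), had a lower mean score with I-BET151 than with DMSO, the only one of the 10 genes to do so, and its groups overlapped. Its 11 regions scored 29.6 and 12.5 with DMSO and 21.01 and 18.0 with I-BET151 (21.1 ± 12.1 against 19.5 ± 2.15, SD, n = 2; exact permutation test, two-sided, p = 1). The direction turned without DMSO replicate 1, where the difference was 6.95 points. The start region (chr2:215435600-215436926) had folds of 4.69, 6.59, 8.82 and 9.24 and percentiles of 74.5, 88.1, 82.8 and 79.9, so that the folds did not overlap but the percentiles did. The intron 12 region chr2:215417421-215417913 was the other called in all lists, with folds of 5.51, 4.08, 5.5 and 8.95. The remaining 9 FN1 regions were each called in 1 list only.

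ACTA2, the smooth muscle actin of myofibroblasts (chr10:88935074-88991339, minus strand), shares its locus with STAMBPL1 and FAS. Its 11 regions scored 13.3 and 6.83 with DMSO and 19.0 and 26.2 with I-BET151, a difference of 12.6 points (10.1 ± 4.56 against 22.6 ± 5.09, SD, n = 2). The start of the canonical transcript carried 2 regions, with folds of 3.34 and 6.06, in I-BET151 replicate 2 alone. The region called in all lists within the gene body (chr10:88990185-88991909) lies within 1 kb of the start of FAS, a death receptor, with folds of 4.06, 3.52, 6.93 and 6.37. The other region called in all lists, chr10:88932583-88933068, lies downstream and had the highest mean percentile, with folds of 4.39, 3.87, 5.77 and 6.47. The gained region (chr10:88934970-88935795, intron 8) had folds of 5.19 and 5.37 and also overlaps STAMBPL1 and ACTA2-AS1.

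Among the transcription factors, ZEB1, a zinc finger repressor of CDH1 (chr10:31318495-31529814, plus strand), had overlapping groups. Its 11 regions scored 21.4 and 10.5 with DMSO and 18.0 and 46.0 with I-BET151 (15.96 ± 7.69 against 32.0 ± 19.8, SD, n = 2; exact permutation test, two-sided, p = 0.667). I-BET151 replicate 2 stood apart, with 10 of the 11 regions called against 4, 2 and 4 in the other lists. The gained region chr10:31404660-31405158 in intron 1, shown above, had the highest folds of the 24 gained members by the lower of both lists, with folds of 9.79 and 9.14 and pileups of 18 and 22 reads. The intron 2 region chr10:31483534-31484210 had the highest mean percentile of the locus, with folds of 4.14, 4.33, 7.19 and 11.8. The region at the start (chr10:31318246-31319736) also lies within 1 kb of the start of the antisense gene ZEB1-AS1. Its folds were 5.20 and 4.36 with DMSO and 4.48 and 5.58 with I-BET151, so they overlapped. The percentiles of this region were 82.1 and 58.5 with DMSO and 25.0 and 43.6 with I-BET151, and its pileups were 30, 28, 18 and 41 reads.

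ZEB2, the paralogue of ZEB1 (chr2:144364364-144521057, minus strand), scored 15.7 and 6.54 with DMSO and 21.01 and 35.2 with I-BET151 over 16 regions, a difference of 16.99 points (11.1 ± 6.47 against 28.1 ± 10.0, SD, n = 2). No list had a region within 1 kb of its canonical start. The gained region chr2:144430778-144431180, over an exon of a non-canonical transcript, had folds of 6.94 and 6.74 and pileups of 24 and 37 reads, and 3 more gained regions lay in the gene body. The intron 2 region chr2:144464693-144465201 had the highest mean percentile, with folds of 6.31, 4.19, 8.39 and 11.1 and percentiles of 90.8, 53.8, 80.4 and 88.9.

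SNAI1 (Snail, chr20:49982980-49988886, plus strand) was the gene of the 10 whose start was a gained region. The region (chr20:49982403-49983084, summit at −102 bp) had folds of 6.09 and 5.33, pileups of 23 and 30 reads and percentiles of 58.8 and 38.8. The SNAI1 scores were 12.4 and 14.6 with DMSO and 33.7 and 26.5 with I-BET151 over 5 regions, a difference of 16.6 points (13.5 ± 1.55 against 30.1 ± 5.10, SD, n = 2), and the groups were well apart. A region at −17420 bp (chr20:49965027-49966121) was called in all lists, with folds of 4.18, 5.09, 7.62 and 7.46.

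SNAI2 (Slug, chr8:48917598-48921740, minus strand) had its start called in every list (chr8:48921269-48922211), with folds of 4.55, 5.44, 6.72 and 7.47 and percentiles of 70.7, 77.5, 66.3 and 65.9. The folds were thus higher and the percentiles lower in both I-BET151 lists. Its 6 regions scored 15.5 and 12.9 with DMSO and 24.9 and 22.9 with I-BET151, a difference of 9.72 points (14.2 ± 1.80 against 23.9 ± 1.36, SD, n = 2). This difference came from flanking regions, 2 of them gained, since within the gene body alone it was −8.01.

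TWIST1, a basic helix-loop-helix factor (chr7:19020991-19117636, minus strand), had the lowest fold of the starts called in all lists in each list but I-BET151 replicate 2. The region (chr7:19117201-19118159) had folds of 3.56, 3.36, 3.42 and 5.02 and percentiles of 35.0, 24.3, 2.005 and 33.1. Its 8 regions scored 12.3 and 3.63 with DMSO and 18.5 and 25.4 with I-BET151, a difference of 14.0 points (7.97 ± 6.14 against 21.96 ± 4.94, SD, n = 2). The gained region chr7:19030283-19030654 lay 87123 bp from the start, in the gene body but outside the canonical transcript, as did other regions of the locus. This gained region had folds of 4.68 and 9.14 and the highest mean percentile of the locus.

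TWIST2, the paralogue of TWIST1 (chr2:238848032-238910534, plus strand), carried the member with the greatest rank shift among those called in all lists. The region chr2:238864068-238864867, 16418 bp into intron 1 and shown above, had folds of 3.34 and 3.46 with DMSO and 8.90 and 15.1 with I-BET151. Its percentiles rose from 24.5 and 28.9 to 83.4 and 97.8, and the groups were far apart. The DMSO pileups were 27 and 26 reads, and those of the shallower I-BET151 libraries 25 and 81 reads. Over its 8 regions the locus scored 15.3 and 3.61 with DMSO and 16.6 and 21.4 with I-BET151 (9.45 ± 8.27 against 19.0 ± 3.36, SD, n = 2). There was no gained region and no region within 1 kb of the start.

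For the regions called in all 4 lists, ranks by fold within each list were turned into normal scores and compared with limma over all 25627 such regions, with Benjamini-Hochberg adjustment over all of them. A rank shift above 0 means a higher place in the I-BET151 lists. By this test 1 of 18 members moved up, against 3.41% of all such regions, and 2 moved down, against 1.96%. The TWIST2 intron 1 region moved up by 2.004 ± 0.44 (SE; limma, adjusted p = 0.0208), a shift at the 99.4 percentile of all such regions. By log2 pileup per M reads centred on each list, its shift was only 0.25 (limma adjusted p = 0.553). The CDH2 upstream region moved down (−1.62, SE 0.42, limma adjusted p = 0.0385), as did the ZEB1 start (−1.51, SE 0.38, limma adjusted p = 0.0342). All 3 calls were lost without DMSO replicate 1, with shifts of 1.70, −1.51 and −1.43, where 0.427% of all regions moved up and 0.438% moved down. They were also lost when ranks were taken by −log10 p (1.24, −1.70 and −1.19), where the shares were 0.0312% and 0.105%. Both downward calls were lost without I-BET151 replicate 1 (−1.06 and −1.32, with 2.52% of all regions moved down) and without DMSO replicate 2 (−1.68 and −1.64, with 0.52%). The downward calls are of rank only: on the log2 scale the mean fold of the CDH2 upstream region was 0.03 higher and that of the ZEB1 start 0.07 higher with I-BET151. The TWIST1 start had the next lowest shift (−1.07, SE 0.40, limma adjusted p = 0.118).

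**Figure D3:**
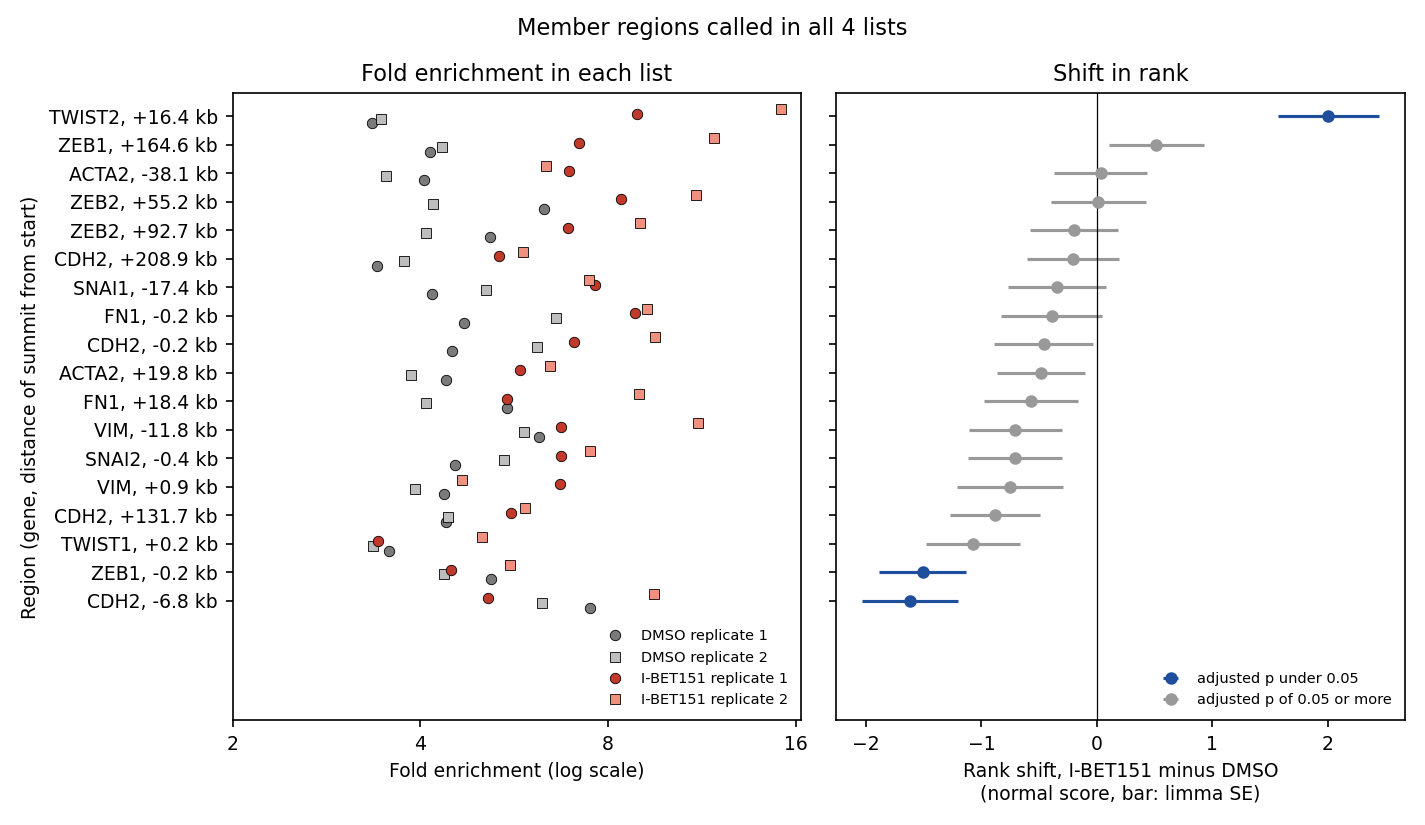
Left, fold enrichment (log scale) of the 18 members called in all 4 lists, 1 point per library, with gene and distance of the summit from the start on the y axis. Right, rank shift of the same regions (I-BET151 minus DMSO, normal score, bars limma SE), where 3 regions in blue have an adjusted p under 0.05: TWIST2 intron 1 at 2.004, the ZEB1 start at −1.51 and the CDH2 upstream region at −1.62.

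By rank of fold, 14 of 18 members called in all lists had a shift below 0, against 51.6% of all such regions, with a median of −0.47 against −0.03. All 6 members at the start of their own gene (CDH2, VIM, FN1, ZEB1, SNAI2 and TWIST1) had a shift below 0, with a median of −0.73. These counts depended on the scale: by ranks of −log10 p, 10 of the 18 members (median −0.15, against 49.5% of all regions below 0) and 4 of the 6 starts lay below 0, and by log2 pileup per M reads centred on each list, 9 of 18 (against 52.5%) and 3 of 6 did. By log2 fold centred on each list, 16 of 18 (against 58.7%) and 6 of 6 did. Over the 9528 shared regions at a protein-coding start, 54.0% had a shift below 0 and the median was −0.07. The other 12 members had a median of −0.27, and 8 of them lay below 0. Rank of fold and log2 fold without centring differ in sign here: mean log2 fold was higher with I-BET151 at all 18 members, with a median rise of 0.60, but it also rose by a median of 0.83 over all 25627 regions. The median rise of the members was thus the smaller of the 2, and no test over the members was made.

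**Figure D4:**
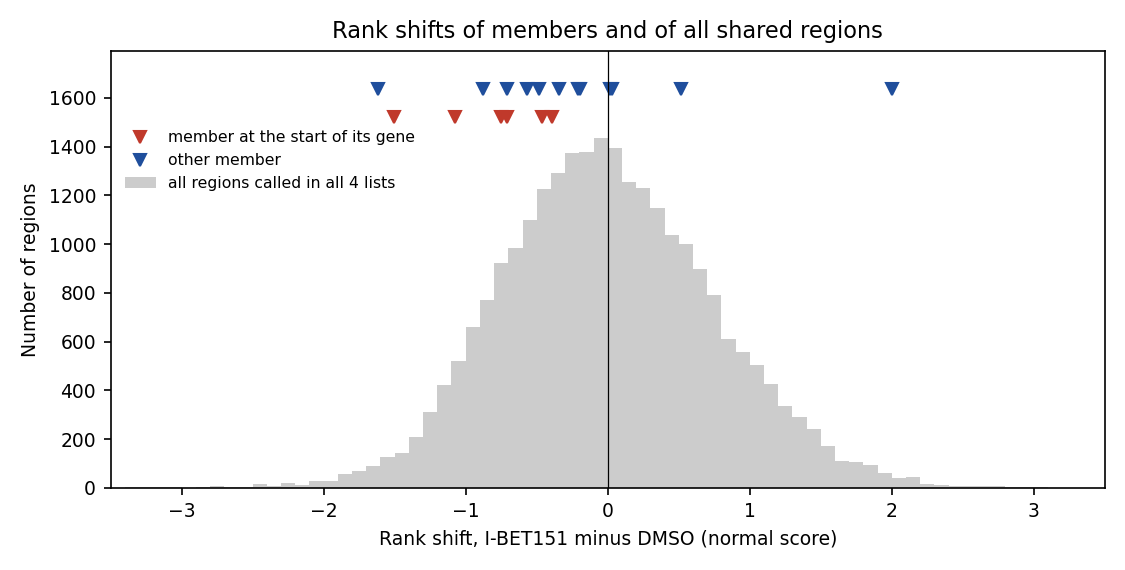
Rank shifts (I-BET151 minus DMSO, normal score, x axis) of all 25627 regions called in all 4 lists as a histogram (number of regions, y axis), with triangles for the 18 members. The 6 members at the start of their own gene, in red, all lie left of 0 (4 of 6 did by ranks of −log10 p, 3 of 6 by centred pileup and 6 of 6 by centred log2 fold), and a single member, in TWIST2, lies at 2.004.

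Of 23 other mesenchymal genes, 19 had a higher mean score with I-BET151 (82.6%, against 82.8% of all genes). Of the 23 genes, 12 had both I-BET151 scores above both DMSO scores (52.2%, against 51.3% of all genes), 3 had both below (13.0%, against 2.96%), and the median difference was 10.2 points. Their 179 regions included 30 gained (16.8%, against 17% of all regions) and 6 lost ones (3.35%, against 2.37%). Of 40 called in all lists, 5 moved up by limma, against 3.41% of all such regions, and 0 moved down, against 1.96%. Shifts below 0 were found at 14 of the 40 (35%, against 51.6% of all such regions). The genes with the greatest differences were GSC, a homeobox factor, which went from 74.3 and 26.3 to 0 and 0 on a single region, S100A4, a calcium-binding protein of fibroblasts, which went from 25.3 and 26.8 to 61.1 and 64.6, THY1, a fibroblast surface protein, which went from 55.9 and 12.5 to 0 and 0 on 2 regions, and TGFBI, a TGFβ-induced matrix protein, which went from 10.3 and 5.20 to 30.8 and 50.8.

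Over 24 epithelial genes, the other side of the programme, 23 had a higher mean score with I-BET151 (95.8%, against 82.8% of all genes). Both I-BET151 scores lay above both DMSO scores at 9 of them (37.5%, against 51.3% of all genes). At none did both lie below, against 2.96% of all genes. The median difference was 8.82 points, against 10.7 over all genes. Their 212 regions included 30 gained (14.2%, against 17% of all regions) and 3 lost ones (1.42%, against 2.37%). Of 60 called in all lists, 2 moved up by limma, against 3.41% of all such regions, and 1 moved down, against 1.96%. CDH1, E-cadherin, the target of the SNAI and ZEB repressors, scored 23.8 and 10.1 with DMSO and 30.7 and 39.6 with I-BET151. OVOL1, an epithelial repressor of ZEB1, scored 0 and 0 against 19.5 and 57.8 on 2 regions, both of them gained. RAB25, a trafficking GTPase, scored 15.3 and 14.8 against 34.1 and 36.9, and ESRP1, an epithelial splicing factor, 23.2 and 15.4 against 37.9 and 41.5. By their medians, mesenchymal and epithelial loci thus both scored higher with I-BET151, as all genes did, and the difference between the lists was not tested. With lists of equal length, the median difference was 2.88 over the other mesenchymal genes, −5.00 over the epithelial genes and −4.71 over the 10 members.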

How the data were processed

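ATAC-seq peak lists of 4 libraries (DMSO and I-BET151, 2 each, grouped by their labels) were analysed. Per the labels and the methods of the study, the authors aligned reads to hg38 with Bowtie2 (2.2.5), discarded duplicate and mitochondrial reads, and ran MACS2 (2.1.2) on every library by itself without a control. The deposited lists give a display score (not used), the fold enrichment of the summit as a ratio, and −log10 of the p-value and q-value, all by the authors within a library. They reach down to a −log10 q of 1.30, and 7.54% to 10.9% of peaks have a p above the 1e-05 of the methods. The shortest peak was 200, 233, 200 and 256 bp in DMSO 1, DMSO 2, I-BET151 1 and I-BET151 2, so both replicate 2 lists depart from the read extension of 200 bp in the methods, and why was not tested.

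Peaks on the 22 autosomes, X and Y were merged at an overlap of 1 bp. The pileup was solved from fold and p and fitted the p of 100% of peaks in each list. Depth was taken from the background with the MACS2 genome size (2.7e+09) and would scale with another. Where a region held several peaks of a list, the one with the highest fold was used. Rank shifts were fitted with limma 3.58.1 (R 4.3.3, lmFit and eBayes, no block, Benjamini-Hochberg, adjusted p under 0.05), and other values were computed with Python 3.11.15. Members and gene lists were chosen with earlier results of these data known. Regions given with values are those over canonical starts, the 6 gained members with the highest lower-of-2 fold, the members called by limma and the member with the highest mean percentile of each gene. Further regions, those called in all lists at FN1, ACTA2 and SNAI1 and the second gained region of VIM among them, were chosen after their values were seen. Examples from the lists are the 4 with the greatest absolute difference in score. The methods were tested on simulated data. Alternatives were stricter thresholds, lists of equal length, 50% coverage, other flanks, each library left out, single replicate pairs, other scales and the replicate block. Libraries with the same number showed no common deviation (correlation −0.14 over 25627 regions), and no source pairs them.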

Additional observations from a re-analysis of the deposited data

How the results depend on the processing

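The 24 gained members became 12 of 53 members at a −log10 p of at least 10 (22.6%, against 23.3% of all regions), 3 of 43 with equal numbers of peaks (6.98%), 38 within the first replicate pair (28.1% of all) and 63 within the second (48.6%), and 26 to 54 when a library was left out, 54 without I-BET151 replicate 1. The 0 lost members became 1 with equal numbers of peaks, 2 with loci of 50 kb, 19 within the first replicate pair (26.8% of all), 1 within the second, and 0 to 14 when a library was left out, 14 without DMSO replicate 2. The member that moved up in rank became 0 at a −log10 p of at least 10, 0 with 50% of the region covered, 0 by ranks of −log10 p, 11 by log2 fold (76.5% of all regions then moved up), 17 by log2 pileup per M reads (96%), 0 by that pileup centred on each list, and 0 to 1 when a library was left out. The 2 that moved down became 0 at a −log10 p of at least 10, with equal numbers of peaks, by ranks of −log10 p, by log2 fold and by log2 pileup, 1 with 50% covered, with no extension and with 5 kb loci, and 0 to 3 when a library was left out. Centring the pileup and crossing the replicate numbers were chosen after seeing the data. With the replicate number as a block, 1 member moved up and 2 moved down, as with crossed numbers, and no other call changed under the block. Over all regions the block gave 985 up and 652 down, and crossed numbers 1985 and 1567, against 875 and 503. The mean locus difference of 12.8 reversed to −4.99 with equal numbers of peaks and was 6.10 within the first replicate pair, 19.5 within the second, 3.96 over regions called in all lists, and 8.66 to 16.9 when a library was left out. Over regions called in all lists, the median was −4.28 and 4 of 10 genes were higher, against 8.14 and 77.3% over all genes. TWIST2 stood at 63.96 there, on 1 region.

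Single values that changed sign were, with equal numbers of peaks, CDH2 (−15.0), VIM (−2.99), ACTA2 (−20.4), ZEB2 (−3.87), SNAI1 (−5.55), SNAI2 (−10.6) and TWIST1 (−1.42). With no extension they were VIM (−3.56) and SNAI2 (−8.01), and with 5 kb SNAI2 (−0.100). Over regions called in all lists they were CDH2 (−8.43), VIM (−9.07), SNAI2 (−8.01) and TWIST1 (−12.1). ZEB1, whose groups overlapped, also turned there (−6.65) and within the first replicate pair (−3.43). FN1 (−1.59, groups overlapping) turned at a −log10 p of at least 10 (9.84), with 50 kb (1.73), without DMSO replicate 1 (6.95), within the second replicate pair (5.44) and by −log10 p (3.68). The ZEB1 start reversed by log2 fold (0.0703) and log2 pileup (1.32), as did the CDH2 upstream region (0.0288 and 0.65). The remaining single values kept their direction: 145 also kept their call or stayed within the spread, 12 lost the call and 25 moved by more than the spread. The causes were not tested. Pileups of 7 to 37 reads at gained members, and 2 libraries per group, limit what can be resolved.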
